A study of Mus musculus with 4 samples.

Results

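The eIF4A2 peaks described here lay in the windows of 3 genes whose products repress or degrade mRNA: Ddx6, Cnot1 and Eif4enif1. A peak was counted for a gene when its midpoint lay in a fixed mm9 window and on the strand of the gene. By this rule 26 of the 47777 peaks of the series belonged to the 3 genes, 6 to Ddx6, 13 to Cnot1 and 7 to Eif4enif1. The rule used position and strand and did not use the fold of a peak. The genes themselves were chosen with earlier results of these data known.

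The data were from eCLIP, which recovers RNA crosslinked by ultraviolet light to a protein with an antibody against that protein. J1 mouse embryonic stem cells (strain 129S4/SvJae) were grown without feeder cells in serum and leukemia inhibitory factor, and no group carried a mutation or drug treatment in the labels. The 2 IP libraries used an antibody against eIF4A2, a DEAD-box RNA helicase related to the initiation factor eIF4A1, and the 2 input libraries gave the background of the same cells. The labels number the replicates of each group and call them biological. Each peak of the deposited list came with 1 log2 fold of IP over input, which the authors had computed, and with no value for any single library. The error of a fold, the replicate spread and the depth are therefore unknown, and no difference below was tested.

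P-bodies are cytoplasmic granules of untranslated mRNA and of the proteins that repress and decap it. DDX6 is a DEAD-box helicase needed for P-body assembly, and it acts in translational repression and decapping. CNOT1 is the scaffold of CCR4-NOT, the main complex that shortens poly(A) tails, and its middle domain binds DDX6. EIF4ENIF1, also called 4E-T, binds the cap-binding protein eIF4E and DDX6 and carries eIF4E into the nucleus and into P-bodies. eIF4A2 has itself been studied in connection with CCR4-NOT, and the peaks here report on the RNAs of these genes and not on contacts between the proteins.

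The window of Ddx6 covered 41 kb of the plus strand of chromosome 9 (chr9:44410000-44451000), that of Cnot1 covered 94 kb of the minus strand of chromosome 8 (chr8:98240000-98334000), and that of Eif4enif1 covered 47 kb of the plus strand of chromosome 11 (chr11:3100000-3147000). In GRCm38, the build of the annotation at hand (GENCODE M21), the genes lie on the same chromosomes and strands. Ddx6 (ENSMUSG00000032097.10) is 35.8 kb long there, Cnot1 (ENSMUSG00000036550.16) is 88.0 kb long and Eif4enif1 (ENSMUSG00000020454.17) is 42.2 kb long, each shorter than its window. Exons make up 22.4% of Ddx6, 19.5% of Cnot1 and 15.1% of Eif4enif1 when all annotated transcripts are merged. No mm9 annotation or genome was at hand. Whether a peak lay in an exon, an intron or an untranslated region was not analysed here, nor was the sequence under it, and the names rest on the windows.

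The windows were set apart from other peaks on their strand. The nearest plus-strand peaks outside the Ddx6 window were 205 kb upstream of its first peak and 133 kb downstream of its last. For Cnot1 these distances were 33.3 kb and 253 kb, and for Eif4enif1 they were 71.8 kb and 46.4 kb. Widening each window by 5000 bases on each side or narrowing it by 2000 left the 3 counts at 6, 13 and 7.

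Ddx6 carried 6 peaks spread over 34.6 kb, 96.7% of the length of the gene in GRCm38. From 5′ to 3′, the first was the widest of the gene at 73 bases (chr9:44413049-44413121), with a log2 fold of 1.99, a 3.97-fold enrichment. The second followed after 222 bases at chr9:44413344-44413392 and was the least enriched of the gene, with a log2 fold of 1.09 (2.13-fold). These neighbours were the sole pair of Ddx6 peaks within 1000 bases of each other.

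The other 4 Ddx6 peaks stood alone, and 3 of them were under 20 bases wide. The third was 8 bases wide (chr9:44422387-44422394) with a log2 fold of 1.24, and the fourth was 48 bases wide (chr9:44436463-44436510) with a log2 fold of 1.82. The most enriched peak of the gene was the fifth, 15 bases wide (chr9:44444711-44444725), with a log2 fold of 2.46 (5.51-fold). It exceeded 87.5% of the peaks of the list. The sixth was 11 bases wide (chr9:44447684-44447694), with a log2 fold of 1.43. The fifth, most enriched peak lay 34.7 kb from the 5′ edge of the window, whereas the highest fold of both other genes lay in their 5′-most group. This contrast rested on that one peak: among Ddx6 peaks of at least 20 bases, the highest was the 5′-most, with a log2 fold of 1.99. The plus strand was the sole strand with peaks in the Ddx6 window, with 0 peaks on the minus strand. In GRCm38 the unclassified genes E030022I16Rik and Gm47234 overlap Ddx6 on its strand, and their reads cannot be told apart from those of Ddx6.

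**Figure D1:**
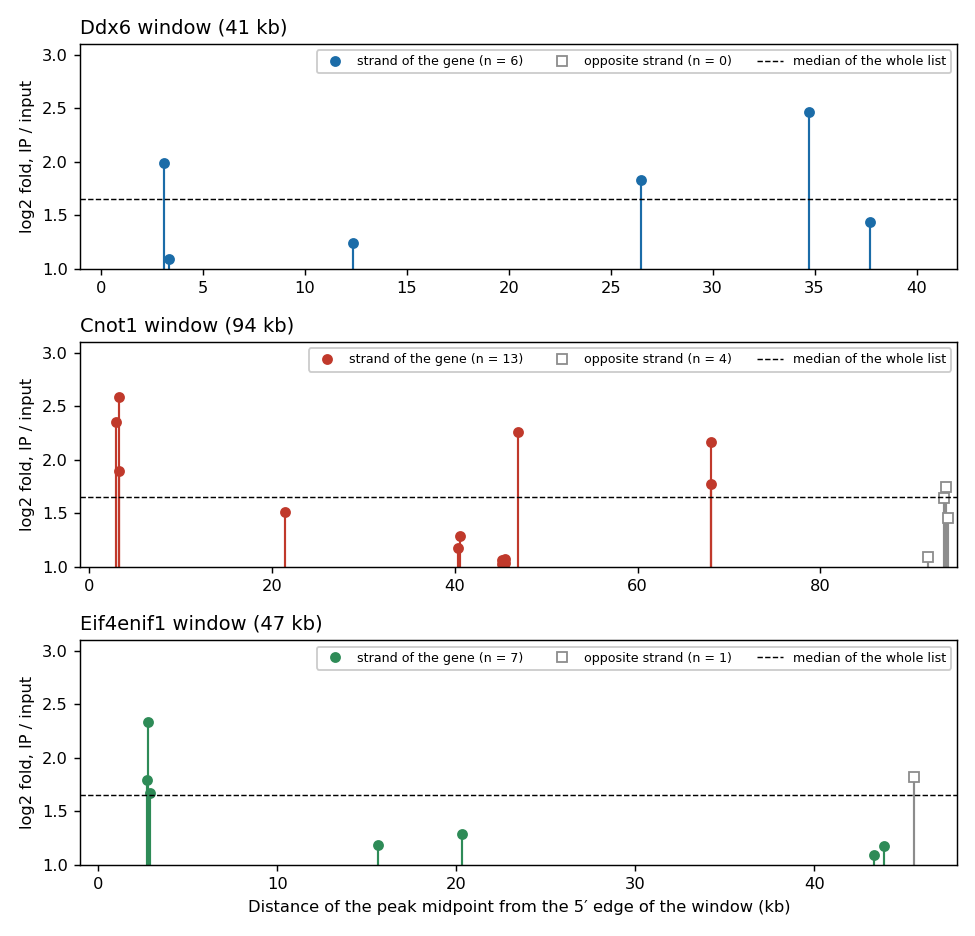
Positions and log2 folds of all peaks in the 3 windows; the x axis is the distance of a peak's midpoint from the 5′ edge of the window in kb, stems rise from a log2 fold of 1, filled circles are peaks on the strand of the gene and open squares are peaks on the opposite strand. Each gene has a group of peaks 2.70 to 3.37 kb from the 5′ edge, and Cnot1 has no peak of its own strand in the last 25.9 kb. The windows are longer than the genes, so their edges are not the ends of the genes.

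Cnot1 carried 13 peaks, which fell into 6 stretches when peaks up to 1000 bases apart were joined. The 5′-most stretch held 3 peaks within 359 bases, and the 2 highest folds of the gene were among them. Its first peak, 41 bases wide (chr8:98331033-98331073), had a log2 fold of 2.35 (5.10-fold). Its last peak, 32 bases wide (chr8:98330715-98330746), had the highest log2 fold of all 26 peaks, 2.58 (5.99-fold), above 91.2% of the list. Next among the folds of Cnot1 was that of a solitary peak of 45 bases in the middle of the window (chr8:98287074-98287118), with a log2 fold of 2.26 (4.78-fold).

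The lowest folds of Cnot1 lay beside this solitary peak, 1346 bases upstream of it. There a stretch of 441 bases held 4 peaks with log2 folds between 1.02 and 1.07. Of these, the 23-base peak at chr8:98288883-98288905 had a log2 fold of 1.02, the 5-base peak at chr8:98288465-98288469 had 1.03 and the 3-base peak at chr8:98288880-98288882 had 1.06. All 4 were at the lower end of the list, which stops at a log2 fold of 1, and up to 5.81% of all peaks were lower. Along Cnot1, folds of 4.78 and of about the lower limit of the list thus stood within 2 kb of each other.

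The widest Cnot1 peak was 81 bases wide (chr8:98293648-98293728) and had a log2 fold of 1.18. The 3′-most peak was 20 bases wide (chr8:98265920-98265939), touched its upstream neighbour end to end and had a log2 fold of 2.16 (4.48-fold). The remaining 5 Cnot1 peaks had log2 folds of 1.07 to 1.90. The 13 peaks spanned 65.2 kb, 74.0% of the length of the gene in GRCm38. The last 25.9 kb of the window on the 3′ side held none. In GRCm38, Cnot1 overlaps small RNA genes on its own strand (the snoRNAs Gm26493 and Gm26265 and the miRNA Mir7073) and the unclassified Gm45762. Strand does not separate their reads from those of Cnot1.

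The 3′ edge of the Cnot1 window held 4 peaks on the opposite (plus) strand, with log2 folds of 1.64, 1.74 and 1.45 at 93.5, 93.8 and 94.0 kb from the 5′ edge and of 1.09 at 91.8 kb. The first 3 belonged to a stretch of 4 peaks whose other peak lay outside the window. In GRCm38 the next protein-coding gene on this side is Setd6, on the plus strand and 0.44 kb from Cnot1. An antisense gene of the plus strand, 4930513N10Rik, overlaps Cnot1 in that build. These peaks were not counted for Cnot1, and the gene to which they belong was not determined.

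Eif4enif1 carried 7 peaks over 41.2 kb, 97.7% of the length of the gene in GRCm38. The 3 nearest the 5′ edge lay within 233 bases. The first was 51 bases wide (chr11:3102677-3102727) with a log2 fold of 1.80, and it touched the second, 67 bases wide (chr11:3102728-3102794), which had the highest log2 fold of the gene, 2.34 (5.06-fold). The third was 39 bases wide (chr11:3102871-3102909), with a log2 fold of 1.67.

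Downstream of this group, all Eif4enif1 peaks were lower. The fourth (chr11:3115621-3115657) had a log2 fold of 1.18 and the fifth (chr11:3120291-3120336) had 1.29. After a gap of 23.0 kb, the longest of the gene, the sixth (chr11:3143317-3143327) had 1.09 and the seventh (chr11:3143890-3143917) had 1.18. The log2 folds of the 5′ group (1.67 to 2.34) and of the other 4 peaks (1.09 to 1.29) did not overlap. On Cnot1 both sets overlapped, with 1.90 to 2.58 in the 5′-most stretch against 1.02 to 2.26 elsewhere, and their medians were 2.35 and 1.23. On Ddx6 they overlapped as well, with medians of 1.54 and 1.63. How often such groups separate from other peaks elsewhere in the list was not counted, so the separation on Eif4enif1 has no background here. One minus-strand peak lay in the Eif4enif1 window, at chr11:3145549-3145565 with a log2 fold of 1.82. Drg1, a gene of that strand, overlaps Eif4enif1 in GRCm38.

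A group of neighbouring peaks stood 5′-most on each of the genes, with its peak midpoints 3.08 to 3.37 kb from the 5′ edge of the window on Ddx6, 2.95 to 3.27 kb on Cnot1 and 2.70 to 2.89 kb on Eif4enif1. Each window is longer than its gene in GRCm38, so these are not distances from the start of the gene. Their similarity depends on where the window edges were set. It made up 59.8% of all bases under peaks on Ddx6, 25.8% on Cnot1 and 56.3% on Eif4enif1. In the whole list, 24% of stretches held at least 2 peaks. Over the 3 genes, 18 of 26 peaks had another within their stretch (11 of 13 on Cnot1, 5 of 7 on Eif4enif1 and 2 of 6 on Ddx6), against 49.7% of the list. End-to-end contact with another peak was seen for 4 peaks of Cnot1 and 2 of Eif4enif1, and 6.79% of the list had it. These groups were singled out after their values were seen, and peaks of 1 RNA are not replicates.

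**Figure D2:**
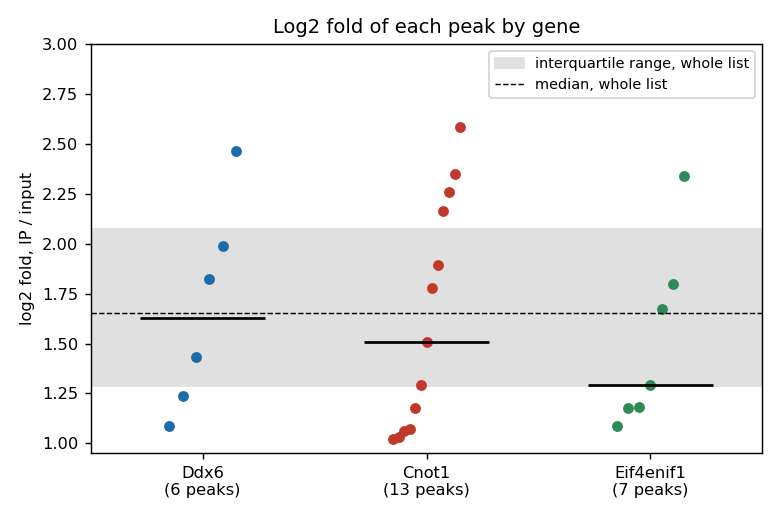
Log2 fold of IP over input of each sense-strand peak (points) by gene, with the median of the gene (bar) and, for the whole list, the interquartile range (band) and the median (dashed line). The gene medians were 1.63, 1.51 and 1.29, against 1.65 for the list (with peaks under 20 bases left out, Ddx6 and Cnot1 lie above it), and no peak reached a log2 fold of 3.

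The folds of the 3 genes were moderate for the list. The median log2 fold was 1.63 for Ddx6 (range 1.09 to 2.46), 1.51 for Cnot1 (1.02 to 2.58) and 1.29 for Eif4enif1 (1.09 to 2.34). The whole list had a median of 1.65 with an interquartile range of 1.29 to 2.07. On the same chromosome and strand the medians were 1.66 for the 1287 peaks with Ddx6, 1.61 for the 1555 peaks with Cnot1 and 1.66 for the 1972 peaks with Eif4enif1. The ranges of the genes overlapped almost entirely, and the medians differed by less than the interquartile range of the peaks within any of the genes. The side of the list's median on which a gene lay depended on the narrow peaks. With a minimum width of 20 bases the medians were 1.82 for Ddx6, 1.90 for Cnot1 and 1.48 for Eif4enif1, against 1.65 for peaks of that width in the list, so that Ddx6 and Cnot1 then lay above it.

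Of the 26 peaks, 6 had a log2 fold of 2 or more, which is 4-fold: 4 on Cnot1, 1 on Ddx6 and 1 on Eif4enif1. In the whole list 28.3% of peaks did so, which is near the 23.1% of these genes. None of the 26 peaks had a log2 fold of 3 (8-fold) or more, which 4.03% of the list had. All of the list lay above a log2 fold of 1, so less enriched positions on these RNAs were not analysed here.

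**Figure D3:**
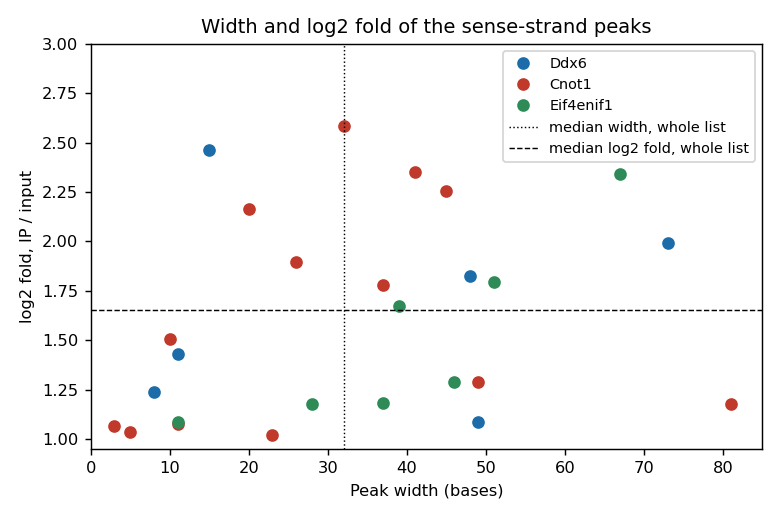
Peak width in bases (x axis) against log2 fold of IP over input (y axis) for the 26 sense-strand peaks, coloured by gene, with the medians of the whole list as lines. Of the 8 peaks under 20 bases, 1 lies above the dashed line, the 15-base peak of Ddx6. In the whole list, 5799 of 11967 peaks under 20 bases lie above it.

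The peaks were short, with a median width of 34.5 bases over the 3 genes and 32 bases in the list. Together they covered 866 bases: 204 on Ddx6, 383 on Cnot1 and 279 on Eif4enif1, which is 0.41% to 0.59% of each window. Of the 26 peaks, 8 were under 20 bases wide (3 on Ddx6, 4 on Cnot1 and 1 on Eif4enif1), against 25% of the list. Among these 8, 1 had a log2 fold above the median of the list, and among the 18 wider peaks 11 did. In the whole list, 5799 of 11967 narrow and 17599 of 35810 wider peaks did. The narrow Cnot1 peaks of 3, 5 and 11 bases lay in 1 stretch of 441 bases. The median log2 fold was 1.16 for the narrow and 1.79 for the wider peaks, whereas in the whole list it was 1.65 and 1.65. Peaks of the same gene share an RNA and are not independent of each other.

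**Figure D4:**
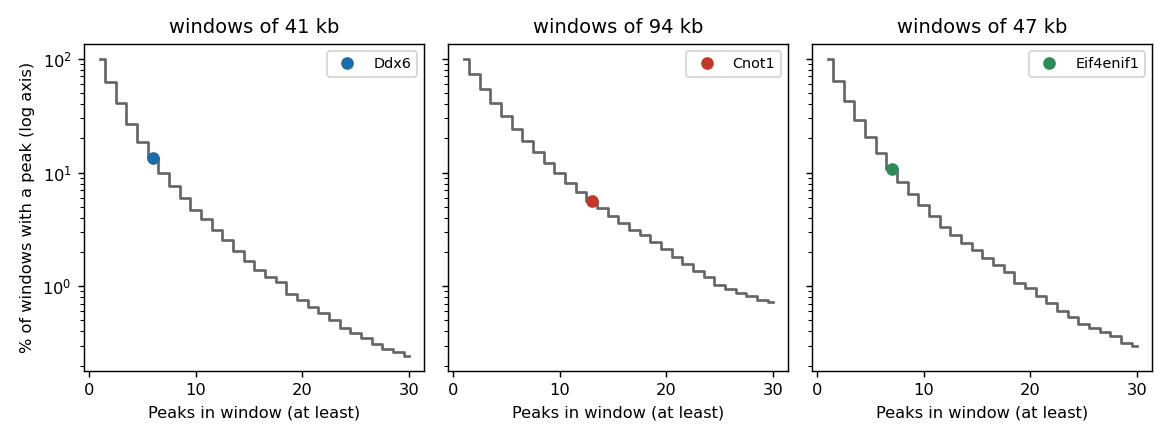
Share of windows (y axis, log scale, percent of windows with at least 1 peak on that strand) that hold at least the number of peaks on the x axis, for consecutive windows of 41, 94 and 47 kb over all chromosomes and both strands. Filled circles mark Ddx6 (6 peaks, 13.4%), Cnot1 (13 peaks, 5.58%) and Eif4enif1 (7 peaks, 10.8%).

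Peaks were about equally dense on the 3 genes, at 1.46 per 10 kb of window for Ddx6, 1.38 for Cnot1 and 1.49 for Eif4enif1. Cnot1 had the most peaks and the longest window. Each count was set beside those of consecutive windows of the same length on 1 strand. At least 6 peaks were held by 13.4% of the 41-kb windows with any peak, whose median was 2. At least 13 were held by 5.58% of such 94-kb windows (median 3), and at least 7 by 10.8% of such 47-kb windows (median 2). Over all windows, those without a peak included, the shares were 1.58%, 1.07% and 1.40%. These windows start at fixed steps and were not placed around genes, so the shares describe the list and do not compare these genes with other transcripts. Since the 3 genes were chosen with earlier results of these data known, the shares are not a test of their counts.

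Many folds recurred exactly in the list. A constant of 0.24, taken from the commonest value of the list, was subtracted from the log2 fold. All 26 values were then the log2 of a whole-number ratio with a denominator of at most 200 (relative tolerance 1e-07). The share of the whole list that meets this limit was not counted. On Ddx6 the ratios were 37 to 11, 9 to 5, 2 to 1, 3 to 1, 14 to 3 and 16 to 7 from 5′ to 3′, and 5 of 6 had a denominator up to 10. The fold of the 8-base Ddx6 peak was given to 4301 peaks of the list and that of the 48-base peak to 3878. On Cnot1 no denominator was 10 or less, and the ratio of its most enriched peak was 66 to 13. Eif4enif1 lay between, with 3 of 7. Of all peaks of the list, 75.6% had such a small denominator. The ratio was itself a whole number for 2 of the 26 peaks, both on Ddx6, against 27.8% of the list. For the 8-base Ddx6 peak, and for all 4301 peaks with its fold, the ratio of 2 to 1 was fixed by the choice of the constant. The counts of whole numbers and of small denominators, on the genes and in the list, also depend on that choice. A reduced ratio does not give the numbers of reads, so the depth behind these peaks remains unknown.

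Other genes of decapping and deadenylation, among them Dcp2, Edc4, Xrn1, the other Cnot subunits and the Tnrc6 genes, were not analysed here because their positions in mm9 were not at hand.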

How the data were processed

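eCLIP libraries (2 IP, 2 input) were processed by the authors with cutadapt 1.18, STAR 2.6.1b and build mm9, per the submitters' processing notes. How peaks were called and filtered and how replicates were combined is not given in the sources used here. From all 4 libraries the authors deposited 1 list, with a log2 fold (IP over input) per peak. The scale was read from the values, since there is no header. Starts were changed to count from 1. Peaks were assigned to a window by midpoint and strand, and stretches joined peaks up to 1000 bases apart. Named features are the 3 genes, with every peak of a gene with up to 12 peaks, and otherwise the 3 highest, the 3 lowest, the 5′-most, the 3′-most and the widest. The members and lists were chosen with earlier results of these data known. Alternatives were any overlap of 1 base, other window extents, a log2 fold of at least 2, a width of at least 20 bases, merging within 50 bases, weighting by width, and density between the outer peaks. Scripts (Python 3.11.15, numpy 2.4.6, pandas 2.3.3) were tested on simulated peaks. No coordinates were converted between builds.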

Additional observations from a re-analysis of the deposited data

How the results depend on the processing

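Of 39 alternative values, 32 stayed within 1.5 times the count or density, or within 0.2 of the median log2 fold. With a minimum log2 fold of 2 there were 1 of 6 peaks on Ddx6, 4 of 13 on Cnot1 and 1 of 7 on Eif4enif1. A width of at least 20 bases left 3 Ddx6 peaks and raised the median from 1.63 to 1.82 for Ddx6 and from 1.51 to 1.90 for Cnot1, which put both above the list's 1.65. A mean weighted by width gave 1.71 for Ddx6, 1.71 for Cnot1 and 1.65 for Eif4enif1, in place of medians of 1.63, 1.51 and 1.29. Eif4enif1 was lowest by each measure, and the order of Ddx6 and Cnot1 depended on the measure. Merging peaks within 50 bases left 9 peaks on Cnot1. Depth is unknown, and its effect on these peaks was not measured. No paired analysis was possible because the list holds a single fold per peak for all libraries together. Leaving out a replicate could not be done either.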
